A study of Homo sapiens with 40 samples.

Results

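HOX genes encode homeodomain transcription factors that lie in 4 clusters, HOXA on chromosome 7, HOXB on chromosome 17, HOXC on chromosome 12 and HOXD on chromosome 2. The members described here are 38 HOX genes, chosen by name from the 62486 gene rows of the count table, together with the peaks of 5 chromatin marks in a window over each cluster. The windows, in hg19 coordinates, are chr7:27130000-27250000, chr17:46600000-46810000, chr12:54330000-54450000 and chr2:176950000-177060000, 560 kb in all. All samples are A549 cells, which are a long-established line from a human lung adenocarcinoma. The control cells (CT) were compared with A549 cells whose SETDB1 gene was disrupted with CRISPR/Cas9 (KO). The SETDB1 enzyme methylates histone H3 at K9, and its product H3K9me3 is a hallmark of silent chromatin. Each genotype had 3 RNA-seq libraries, 2 ChIP-seq libraries for each of H3K4me3, H3K27ac, CTCF, H3K27me3 and H3K9me3, and 2 Hi-C libraries. The labels do not give whether the KO cells are a single clone or a pool, what the control cells received, or whether libraries of a genotype came from separate cultures, so p-values measure the spread between these libraries only.

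In the embryo, HOX genes are switched on in the order in which they lie along a cluster and give position along the body axis. Genes at the same place in different clusters descend from a single ancestor and share a number, the paralogue group. Outside their domain of expression the clusters are classical targets of Polycomb complexes, which place H3K27me3, while Trithorax-type complexes place H3K4me3 at active members. HOX proteins bind DNA together with TALE-class partners of the PBX and MEIS families, and retinoic acid is a known activator of genes at the low-numbered end of the clusters. Adult lung keeps a set of HOX transcripts, with HOXA5 known for its role in lung development.

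RNA-seq libraries held 18065062 to 48364919 counts. SETDB1 transcript was at 37.5, 39.6 and 38.7 CPM (counts scaled to library size) in control and 23.4, 21.2 and 21.1 CPM in KO, so it was lower in each KO library but still present. All 7 epithelial markers passed the expression filter, and their summed level was 4464 to 4886 CPM in control and 10829 to 11633 CPM in KO. Of 9 lung epithelial markers 4 passed the expression filter, at a summed 53.2 to 58.2 CPM in control and 99.7 to 110 CPM in KO, and SFTPA1 had 0 counts. Within that sum FOXA1 rose from 16.6 to 73.9 CPM and FOXA2 fell from 35.9 to 26.6 CPM (adjusted p = 1.6e-22 and 2.1e-05). Leukocyte markers were all under 1 CPM with CD3E at 0, 5 of 6 fibroblast markers averaged under 1 CPM over the 6 libraries with COL1A2 and DCN at 0, and 3 endothelial markers summed to 0.276 to 0.412 CPM in control and 3.97 to 5.28 CPM in KO, nearly all from CDH5. The 3 tested fibroblast markers differed in direction. PDGFRA fell from 1.301 to 0.1278 CPM (adjusted p = 2.2e-09). COL3A1 rose from 0.320 to 0.873 CPM and COL1A1 from 3.10 to 3.83 CPM (adjusted p = 0.00061 and 0.041). The fibroblast markers summed to 4.74 to 4.86 CPM in control and 4.89 to 5.21 CPM in KO. The epithelial, lung epithelial and endothelial sums moved with genotype, and the part of the markers in the HOX values was not tested. In bulk RNA, fewer cells of a type and less RNA per cell cannot be told apart.

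More HOX genes rose than fell in KO cells. All 38 members were matched, and 28 passed the filter on low counts. HOXA9, HOXA11 and HOXD4 passed it only through the KO libraries, and HOXD10 only through the control libraries. Whether these 4 genes were tested thus depended on the genotype in which they were high. Of these 28, 15 rose (53.6%) and 4 fell (14.3%) at an adjusted p under 0.05, the threshold used throughout, and 9 did not pass it. Among all 17767 genes tested, 62.8% were called, 32.8% higher and 30% lower, so the share of HOX genes called at all (67.9%) was near that of all genes. The median log2 fold change (KO over control) was 0.43 for the 28 HOX genes and 0.00 for all genes. Changes were mostly under 2-fold: 3 of 28 passed the test at 2-fold or more, HOXA3 and HOXC11 upward and HOXD10 downward, against 14.7% of all genes (9.86% higher, 4.85% lower). That number was 5 without the first control, second control or first KO library and 8 without the second or the third KO library. For 18 of the 28, CPM in all libraries of a genotype lay on one side of the other genotype, against 65.8% of all genes.

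Chromosomes 2 and 12 shifted as a whole, which bears on HOXD and HOXC. The median log2 fold change was -0.54 over the tested genes of chromosome 2, 0.37 over chromosome 12, 0.04 over chromosome 17 and 0.06 over chromosome 7. On chromosome 2, 9.25% of tested genes were called higher and 72.3% lower, and on chromosome 12, 65.8% were called higher and 8.43% lower. Relative to the median of their own chromosome, 24 of the 28 HOX genes lay above it, and the median difference was 0.29. To set the clusters against this, the fit was also run with the chromosome median as an offset, and its values are given for the genes whose call it changed.

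**Figure D1:**
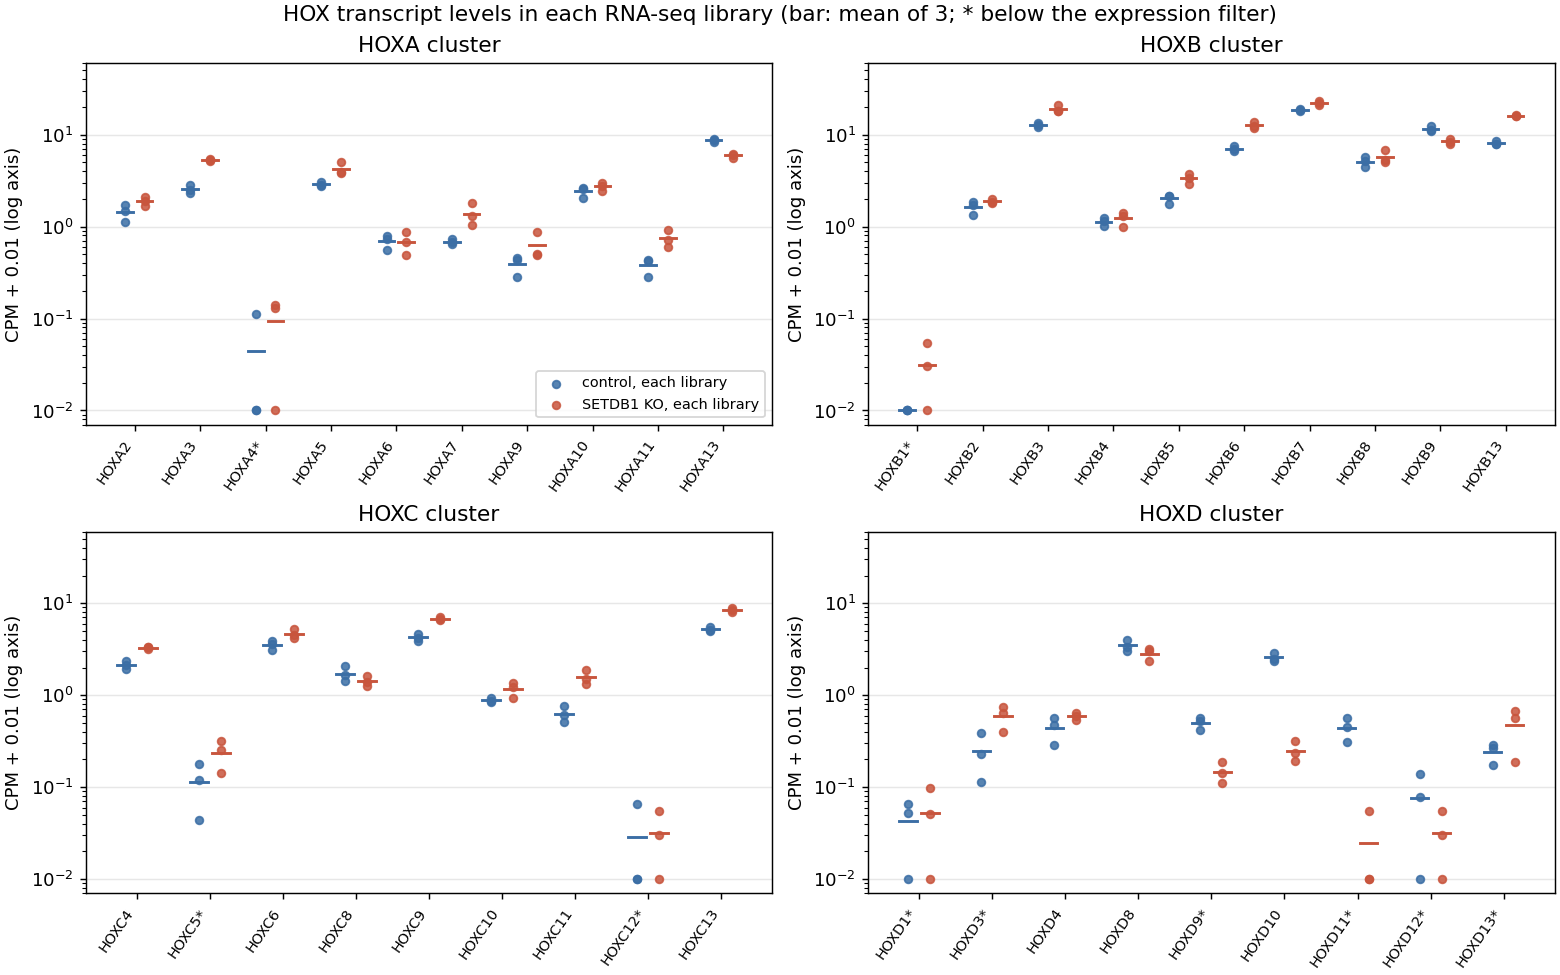
Level of each HOX gene in each RNA-seq library, in CPM plus 0.01 on a log axis, with members in order of paralogue group, control in blue and KO in red, and a bar at the mean of 3 libraries. HOXD10 stands at 2.32 to 2.89 CPM in control and 0.183 to 0.306 CPM in KO, and HOXB13 stands at 7.86 to 8.45 CPM in control and 15.8 to 16.2 CPM in KO.

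In the HOXA cluster, 5 of 9 tested genes rose, HOXA13 alone fell, and HOXA2, HOXA6 and HOXA10 did not pass the test. The 5 include HOXA9 and HOXA11, which passed the filter on low counts only through the KO libraries, where they were high. The summed level of the 10 HOXA members was 20.1 ± 0.430 CPM in control and 23.5 ± 0.193 CPM in KO (SD, n = 3). HOXA3, which acts in the forming thymus and parathyroid, was at 2.51, 2.82 and 2.34 CPM in control and 5.33, 5.13 and 5.39 CPM in KO (log2 fold change 1.06 ± 0.13 SE, adjusted p = 3.4e-08). The highest control library was well below the lowest KO library. HOXA5, needed for lung morphogenesis, was at 2.76, 2.82 and 3.02 CPM in control and 3.798, 3.92 and 4.99 CPM in KO (log2 fold change 0.53 ± 0.14 SE, adjusted p = 0.0014). HOXA7 was at 0.637, 0.662 and 0.721 CPM in control and 1.79, 1.28 and 1.02 CPM in KO (log2 fold change 0.99 ± 0.25 SE, adjusted p = 0.0012). For both genes the genotypes did not overlap, with the KO libraries spread more widely than the control libraries. HOXA11, a factor of forearm and uterus patterning, was at 0.425, 0.276 and 0.412 CPM in control and 0.917, 0.588 and 0.713 CPM in KO (log2 fold change 0.87 ± 0.32 SE, adjusted p = 0.02). HOXA9, a factor in blood stem cells and leukaemia, was at 0.425, 0.276 and 0.447 CPM in control and 0.4802, 0.872 and 0.4901 CPM in KO (log2 fold change 0.77 ± 0.34 SE, adjusted p = 0.048), a call that 10 of 14 alternatives ended. Without the first, the second or the third control library its adjusted p was 0.062, 0.15 or 0.066, and without the second KO library its log2 fold change was 0.295 with an adjusted p of 0.57. HOXA11 had an adjusted p of 0.075 without the second control library and 0.079 without the first KO library. HOXA13, the last gene of the cluster and a regulator of digit and urogenital development, moved the other way, at 8.79, 8.94 and 8.38 CPM in control and 6.07, 5.58 and 6.15 CPM in KO (log2 fold change -0.56 ± 0.10 SE, adjusted p = 9.0e-06). All 3 control libraries were above all 3 KO libraries. The remaining tested genes were HOXA2 (log2 fold change 0.39, adjusted p = 0.07), HOXA6 (0.12, adjusted p = 0.74) and HOXA10 (0.19, adjusted p = 0.27). HOXA2 was called higher without the first control (adjusted p = 0.034) or the first KO library (adjusted p = 0.046).

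In the HOXB cluster, 5 of 9 tested genes rose, HOXB9 alone fell, and HOXB2, HOXB4 and HOXB8 did not pass the test. The summed level of the 10 HOXB members was 67.9 ± 1.83 CPM in control and 90.4 ± 3.299 CPM in KO (SD, n = 3). HOXB13, a lineage factor of prostate and hindgut that lies apart from the rest of its cluster, was at 7.86, 8.45 and 7.901 CPM in control and 16.02, 16.2 and 15.8 CPM in KO (log2 fold change 0.99 ± 0.08 SE, adjusted p = 1.2e-11). The KO libraries differed from each other by far less than from any control library. HOXB6 was at 6.92, 7.45 and 6.56 CPM in control and 12.4, 13.8 and 11.8 CPM in KO (log2 fold change 0.88 ± 0.09 SE, adjusted p = 2.0e-09). Its neighbour HOXB5, expressed in developing lung mesenchyme, was at 2.17, 1.77 and 2.13 CPM in control and 3.405, 3.73 and 2.896 CPM in KO (log2 fold change 0.74 ± 0.15 SE, adjusted p = 0.00012). HOXB3, a hindbrain patterning gene, was at 12.7, 13.4 and 12.1 CPM in control and 18.2, 20.8 and 18.1 CPM in KO (log2 fold change 0.60 ± 0.08 SE, adjusted p = 9.2e-08). In all 3 genes every KO library exceeded every control library. The smallest called change was that of HOXB7, at 18.3, 19.2 and 18.6 CPM in control and 21.0, 21.9 and 23.5 CPM in KO (log2 fold change 0.24 ± 0.07 SE, adjusted p = 0.0023). HOXB9, next to HOXB8 and known from rib patterning, was at 11.2, 12.5 and 11.03 CPM in control and 8.34, 7.99 and 9.001 CPM in KO (log2 fold change -0.46 ± 0.09 SE, adjusted p = 5.0e-05). Its control libraries all lay above its KO libraries. HOXB2, HOXB4 and HOXB8 had log2 fold changes of 0.19, 0.08 and 0.19, with adjusted p of 0.36, 0.79 and 0.19.

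In the HOXC cluster, 5 of 7 tested genes rose, none fell, and HOXC8 and HOXC10 did not pass the test. The share called higher, 71.4%, was near the 65.8% of all tested genes of chromosome 12. The summed level of the 9 HOXC members was 18.4 ± 1.09 CPM in control and 27.5 ± 1.54 CPM in KO (SD, n = 3). HOXC11 had the largest increase of all tested HOX genes before chromosome medians were taken out. It was at 0.595, 0.497 and 0.756 CPM in control and 1.31, 1.48 and 1.87 CPM in KO (log2 fold change 1.27 ± 0.24 SE, adjusted p = 4.7e-05). Relative to the median of their own chromosome, HOXA3 (1.00), HOXB13 (0.96) and HOXA7 (0.93) lay above HOXC11 (0.90). HOXC13, a regulator of hair and nail keratin genes, was at 5.097, 5.02 and 5.56 CPM in control and 8.34, 8.97 and 7.98 CPM in KO (log2 fold change 0.69 ± 0.10 SE, adjusted p = 7.6e-07). HOXC9 was at 4.21, 3.92 and 4.57 CPM in control and 6.59, 7.08 and 6.68 CPM in KO (log2 fold change 0.68 ± 0.11 SE, adjusted p = 3.7e-06). HOXC11, HOXC13 and HOXC9 had no overlapping genotypes. Each of these 3 was called also after the median of chromosome 12 was taken out, at log2 fold changes of 0.90, 0.32 and 0.31. HOXC4 was at 1.91, 2.32 and 2.13 CPM in control and 3.19, 3.31 and 3.34 CPM in KO (log2 fold change 0.64 ± 0.15 SE, adjusted p = 0.00038). HOXC6 was at 3.87, 3.09 and 3.57 CPM in control and 4.45, 5.17 and 4.14 CPM in KO (log2 fold change 0.41 ± 0.13 SE, adjusted p = 0.0069). HOXC4, HOXC5 and HOXC6 have overlapping transcripts, so counts could be split between them. With the chromosome median taken out, HOXC4 (0.27, adjusted p = 0.11) and HOXC6 (0.04, adjusted p = 0.81) were no longer called, and HOXC8 became called lower (-0.61, adjusted p = 0.0087). Without the second KO library, HOXC6 was at 0.28 with an adjusted p of 0.11. As deposited, HOXC8 was at 1.402, 1.66 and 2.06 CPM in control and 1.397, 1.62 and 1.25 CPM in KO and HOXC10 at 0.8495, 0.828 and 0.927 CPM in control and 0.917, 1.34 and 1.203 CPM in KO, with overlapping genotypes. Without the first KO library HOXC10 was called higher (0.57, adjusted p = 0.041).

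In the HOXD cluster, 0 of 3 tested genes rose, HOXD8 and HOXD10 fell, HOXD4 did not pass the test, and the other 6 members were below the filter on low counts. The summed level of the 9 HOXD members was 7.94 ± 0.528 CPM in control and 4.90 ± 0.694 CPM in KO (SD, n = 3), while the sums of the other clusters were higher in KO. The largest part of the HOXD drop was HOXD10, from 2.56 to 0.237 CPM. HOXD8, HOXD9, HOXD11 and HOXD12 also had lower means in KO, and HOXD1, HOXD3, HOXD4 and HOXD13 had higher means. The sums do not take out the chromosome medians, -0.54 for chromosome 2 and 0.37 for chromosome 12. Whether the clusters differ from each other was not tested. HOXD10, a factor of hindlimb motor neuron patterning, was at 2.89, 2.32 and 2.47 CPM in control and 0.306, 0.183 and 0.223 CPM in KO (log2 fold change -3.50 ± 0.26 SE, adjusted p = 1.9e-12). These levels came from 68, 42 and 72 counts in control and 7, 9 and 5 in KO, so HOXD10 passed the filter on low counts only through the control libraries. The lowest control library was far above the highest KO library. Over all alternatives run, including the chromosome median offset, the log2 fold change of HOXD10 was between -3.68 and -2.97, and it was called in each. HOXD8 was at 3.02, 3.37 and 4.02 CPM in control and 3.14, 2.33 and 2.99 CPM in KO (log2 fold change -0.37 ± 0.15 SE, adjusted p = 0.035), and its genotypes overlapped. With the median of chromosome 2 taken out, HOXD8 turned to a log2 difference of 0.17 (adjusted p = 0.34). Without the third control or the second KO library it was at -0.22 (adjusted p = 0.28) and -0.19 (adjusted p = 0.35). HOXD4 was at 0.467, 0.276 and 0.5496 CPM in control and 0.524, 0.588 and 0.624 CPM in KO and was not called (log2 fold change 0.36, adjusted p = 0.33), but was called higher relative to chromosome 2 (0.90, adjusted p = 0.015).

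The HOXD members below the filter were counted in few reads, and their counts differed in both directions. For these genes the ratio of summed CPM-scaled counts is given with an exact 95% interval that covers counting error only. HOXD11, next to HOXD10, had 7, 8 and 16 counts in control and 0, 0 and 1 in KO, a level 41.5-fold higher in control (6.91 to 1689). HOXD9, on the other side of HOXD10, had 12, 10 and 12 counts in control and 3, 5 and 4 in KO, 3.79-fold higher in control (1.91 to 8.04). So the 3 neighbouring genes HOXD9, HOXD10 and HOXD11 were each lower in every KO library than in every control library. HOXD13, the regulator of digits at the end of the cluster, had 6, 3 and 8 counts in control and 15, 27 and 4 in KO, with a ratio of KO to control of 2.02 (1.14 to 3.76) but a low count in the third KO library, so that the genotypes overlapped. HOXD3, near the opposite end, had 9, 4 and 3 counts in control and 17, 19 and 14 in KO, with a ratio of 2.34 (1.31 to 4.40). When all genes were fitted with no expression filter, the log2 fold change was -4.83 for HOXD11 (adjusted p = 9.8e-09), -1.84 for HOXD9 (adjusted p = 0.00058), 1.27 for HOXD3 (adjusted p = 0.0090) and 1.04 for HOXD13 (adjusted p = 0.042). The fitted value of HOXD11 depends on the prior count, since 2 of its KO libraries were at 0. HOXC5 had 4, 2 and 1 counts in control and 7, 12 and 3 in KO, with a ratio of 2.35 (0.970 to 6.51), and HOXA4 had 3 counts in control and 9 in KO in all. HOXB1, HOXC12, HOXD1 and HOXD12 had fewer than 10 counts over the 6 libraries, and no difference was detectable at this depth.

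**Figure D2:**
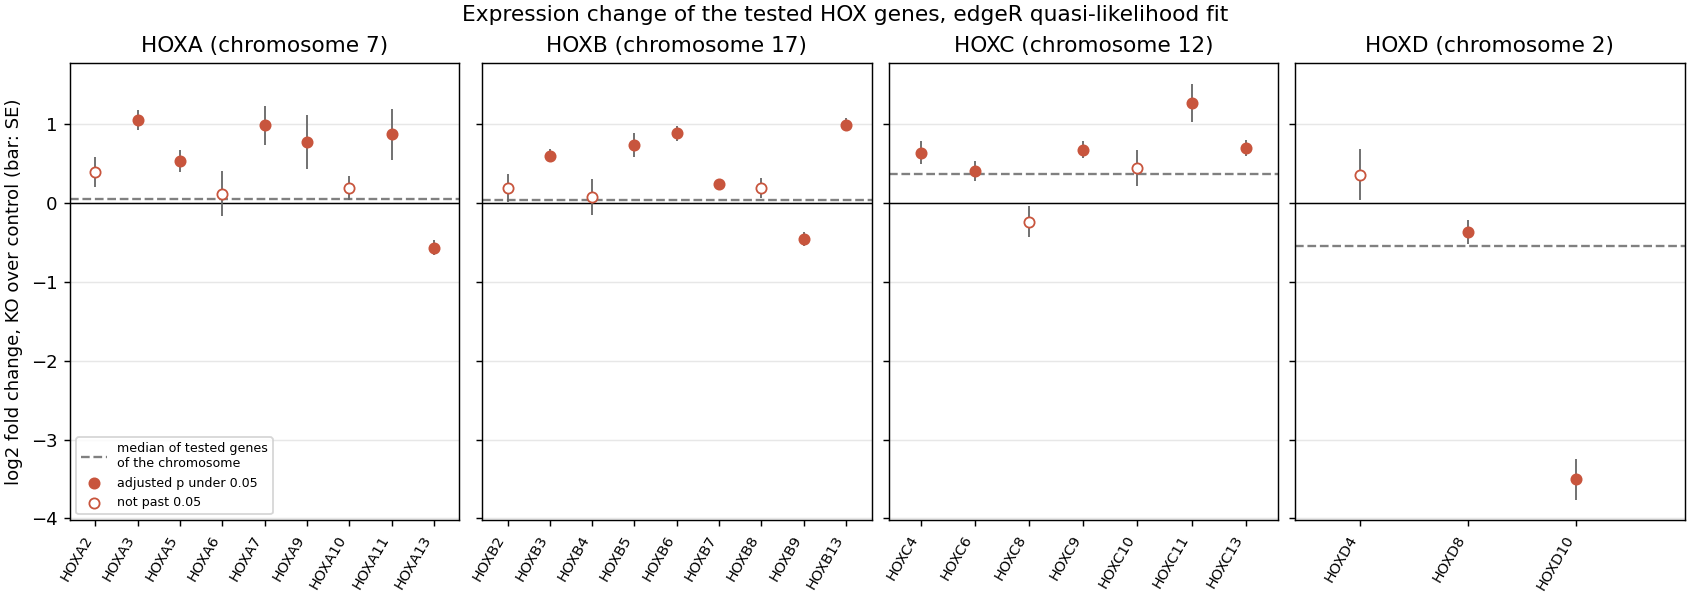
Log2 fold change of KO over control for the 28 tested HOX genes, by cluster and paralogue group, with bars of 1 SE; filled points passed an adjusted p of 0.05 and the dashed line is the median of the tested genes of that chromosome. HOXD10 lies at -3.50, and 24 of the 28 points lie above the dashed line.

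Promoters of HOXD13, HOXD11, HOXD10 and HOXD8 are shown because these genes of 1 cluster differed in direction, with HOXD11 and HOXD10 low in KO, HOXD8 lower by less and HOXD13 with more counts in KO. Each window runs from 250 bases before to 50 bases after a RefSeq start on GRCh38.p14, forward strand, at chr2:176092471-176092770, chr2:176107030-176107329, chr2:176116528-176116827 and chr2:176129455-176129754 in that order. These positions are on another build than the peaks and were not joined to them. Capitals mark matches, on either strand, to the TATA box TATAAA, the CCAAT box CCAAT or the HOX-PBX site TGATTNAT.
HOXD13: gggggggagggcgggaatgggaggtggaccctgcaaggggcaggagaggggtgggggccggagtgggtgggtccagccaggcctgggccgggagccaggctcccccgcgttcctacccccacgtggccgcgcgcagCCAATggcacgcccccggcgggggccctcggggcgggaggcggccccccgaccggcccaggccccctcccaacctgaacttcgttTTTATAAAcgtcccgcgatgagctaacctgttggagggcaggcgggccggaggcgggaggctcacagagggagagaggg
HOXD11: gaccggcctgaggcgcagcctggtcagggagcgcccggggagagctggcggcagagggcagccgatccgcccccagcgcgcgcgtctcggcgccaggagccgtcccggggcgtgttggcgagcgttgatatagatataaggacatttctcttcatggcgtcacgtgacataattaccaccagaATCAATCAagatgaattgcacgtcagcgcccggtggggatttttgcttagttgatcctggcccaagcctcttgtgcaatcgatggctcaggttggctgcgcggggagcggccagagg
HOXD10: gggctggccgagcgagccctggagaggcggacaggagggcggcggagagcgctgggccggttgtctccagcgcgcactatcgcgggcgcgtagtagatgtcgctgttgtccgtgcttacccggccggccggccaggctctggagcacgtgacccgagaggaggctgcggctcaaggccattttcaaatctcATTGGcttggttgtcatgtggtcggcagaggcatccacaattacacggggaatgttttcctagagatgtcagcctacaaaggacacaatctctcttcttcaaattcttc
HOXD8: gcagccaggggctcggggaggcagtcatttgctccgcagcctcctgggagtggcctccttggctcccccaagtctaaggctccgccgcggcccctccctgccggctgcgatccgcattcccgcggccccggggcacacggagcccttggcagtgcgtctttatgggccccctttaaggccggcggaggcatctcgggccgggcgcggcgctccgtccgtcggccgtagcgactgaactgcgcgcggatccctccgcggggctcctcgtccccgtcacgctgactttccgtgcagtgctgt

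HOXD13 has a CCAAT box whose first base lies 114 bases before the start and overlapping TATA matches on both strands beginning 29 and 27 bases before it. HOXD11 has 1 match to the HOX-PBX site, 67 bases before its start, and HOXD10 a CCAAT box on the reverse strand 59 bases before. The HOXD8 window holds none of the 3 motifs. Of all 35116 windows in the RefSeq table, 11.5% hold TATAAA, 34.6% CCAAT and 2.82% TGATTNAT, and a match is a description of letters, not of binding.

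Paralogue groups cut across the clusters. In groups 3, 5, 7 and 11 all tested members rose, with 2 tested members in each. Group 3 was made of HOXA3 and HOXB3, group 5 of HOXA5 and HOXB5, group 7 of HOXA7 and HOXB7, and group 11 of HOXA11 and HOXC11. HOXD11, the other member of group 11, was below the filter and lower in each KO library, so that group was not uniform. HOXD3 of group 3 and HOXC5 of group 5 were below it too. Groups 9 and 13 were split: HOXA9 and HOXC9 rose and HOXB9 fell, and HOXB13 and HOXC13 rose and HOXA13 fell, while HOXD9 and HOXD13 were below the filter. No member of groups 2, 8 or 10 rose. The groups hold at most 3 tested genes, and no group was tested as such.

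Other transcripts of the clusters, mostly long noncoding and antisense RNAs, were tested for 15 of 25 matched names, and 7 rose and 1 fell, with a median log2 fold change of 0.49. The share called was 53.3%, against 62.8% of all genes. HOXA11-AS, antisense to HOXA11, was at 0.1699, 0.221 and 0.412 CPM in control and 1.22, 0.913 and 0.847 CPM in KO (log2 fold change 1.77 ± 0.34 SE, adjusted p = 3.9e-05). HOTAIR, a noncoding RNA of the HOXC cluster known for work on its binding to Polycomb proteins, was at 0.382, 0.331 and 0.378 CPM in control and 0.786, 1.03 and 0.757 CPM in KO (log2 fold change 1.29 ± 0.30 SE, adjusted p = 0.00051). Both were low in every control library and their genotypes did not overlap. HOXA11-AS and HOTAIR passed the filter on low counts only through the KO libraries. HOXA-AS2 was at 3.74, 4.58 and 3.78 CPM in control and 8.21, 7.06 and 6.59 CPM in KO (log2 fold change 0.86 ± 0.12 SE, adjusted p = 2.6e-07). HOXD-AS2, in the cluster where HOXD8 and HOXD10 fell, was at 0.765, 0.662 and 0.5496 CPM in control and 0.393, 0.243 and 0.446 CPM in KO (log2 fold change -0.97 ± 0.34 SE, adjusted p = 0.013). It was no longer called with DESeq2 or with the chromosome median taken out, and without the first control or the second KO library no transcript of the list was called lower. The labels name a stranded kit, but the strand setting of the counting is not given in the sources used here, so reads of a HOX gene and of its antisense partner cannot be told apart.

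Among the TALE-class partners of HOX proteins, counted together with PBXIP1, 5 of 9 tested genes rose and 1 fell. The 66.7% called were near the 62.8% of all genes. MEIS2 rose from 14.4 ± 1.21 to 39.2 ± 0.767 CPM (SD, n = 3; log2 fold change 1.44 ± 0.07 SE, adjusted p = 5.4e-17), PBX4 from 0.511 ± 0.131 to 1.23 ± 0.169 CPM (log2 fold change 1.31) and PBXIP1, a PBX-interacting protein, from 28.8 ± 3.42 to 45.4 ± 1.89 CPM (log2 fold change 0.67). The KO libraries thus held more MEIS2 and PBX4 transcript than the control libraries. Of 31 Polycomb genes, all tested, 7 rose and 13 fell, with a median log2 fold change of -0.06, and the 64.5% called were near the 62.8% of all genes. CBX2, a chromodomain reader of H3K27me3, fell from 51.2 ± 3.86 to 31.8 ± 0.364 CPM (log2 fold change -0.69 ± 0.06 SE, adjusted p = 3.2e-11). The 3 core subunits of the H3K27 methyltransferase complex were called lower, EZH2 at -0.26, EED at -0.39 and SUZ12 at -0.22, which were chosen after their values were seen. PCGF1 was at -0.62 and PCGF5 at -0.44, both subunits of the H2A ubiquitin ligase complexes. PCGF1 lies on chromosome 2 and was at -0.08 with that chromosome's median taken out. Members that went up included PHC1 (0.68), RYBP (0.38), KDM2B (0.32) and PHC2 (0.29). PHC1 and KDM2B lie on chromosome 12, whose median was 0.37, and KDM2B was below that median.

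Of 21 genes of Trithorax and COMPASS complexes and H3K27 demethylases, 12 rose and 5 fell, with a median log2 fold change of 0.16. They were called higher in 57.1% and lower in 23.8%, against 32.8% and 30% of all genes. MLLT3, a reader of acylated histones and a fusion partner of KMT2A in leukaemia, rose from 36.6 ± 2.29 to 87.3 ± 3.39 CPM (log2 fold change 1.25 ± 0.05 SE, adjusted p = 1.1e-17). SETD1B, an H3K4 methyltransferase, was at 0.76, the demethylase-family gene UTY at 1.01 and the H3K27 demethylase KDM6B at 0.55. The core subunits WDR5 (-0.32), DPY30 (-0.30) and RBBP5 (-0.20), the chromatin reader PSIP1 (-0.18) and the methyltransferase KMT2A (-0.20) fell. With the chromosome median taken out, DPY30 on chromosome 2 was at 0.24 and SETD1B on chromosome 12 at 0.39. Of 12 tested genes of retinoic acid handling and caudal factors, 5 rose and 3 fell, with a median of 0.11, and the 66.7% called were near the 62.8% of all genes. The receptor RARG rose (log2 fold change 0.89), which was not the largest rise of these genes. CYP26A1, which degrades retinoic acid, CRABP2 and the receptor RARB fell (-1.36, -1.10 and -0.85). The caudal factors CDX1 and CDX4 had 0 counts in all libraries.

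Genes flanking the clusters changed in both directions. Of 25 tested, 11 rose and 11 fell, with a median log2 fold change of 0.01, and 88% were called, against 62.8% of all genes. All 6 tested flanks of HOXD on chromosome 2 fell, where 72.3% of all tested genes of that chromosome were called lower. Their changes lay on both sides of the chromosome median of -0.54. HNRNPA3 (-0.92), ATP5MC3 (-0.84) and MTX2 (-0.78) were below it. NFE2L2 (-0.46), LNPK (-0.41) and ATF2 (-0.23) were above it, these latter 3 chosen after their values were seen. HOXD10 at -3.50 lay below each of these neighbours. At HOXC on chromosome 12, whose median was 0.37, CALCOCO1 rose (1.16), and at HOXB the hormone gene GIP fell (-0.85).

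The ChIP-seq peaks were deposited as a single list of positions for each mark and genotype, so peak counts and lengths have no replicate error, and no peak was assigned to a gene because no annotation of the same build was used here. The lists give neither height nor score, so differences between them carry no test. The windows were rich in the promoter mark H3K4me3 and the active mark H3K27ac in both genotypes. H3K4me3 covered 24.1% of the 560 kb in control (64 peaks) and 27.2% in KO (68 peaks), against 3.28% and 3.77% of the genome. H3K27ac covered 17.1% (60 peaks) and 19.3% (56 peaks), against 3.59% and 3.96% of the genome. Of the 64 control H3K4me3 peaks 95.3% (Wilson 95% interval 87.1 to 98.4) overlapped a KO peak, against 85.1% of all control peaks. For H3K27ac this share was 80.0% (68.2 to 88.2), against 73.1%.

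HOXA had the widest H3K4me3 domain and the largest relative gain in H3K27ac. Control cells had an 8398-bp H3K4me3 peak at chr7:27150185-27158582 and another at chr7:27159390-27163317, where KO cells had a single peak of 13518 bp. H3K27ac covered 22.4 kb of HOXA in control and 31.3 kb in KO, and all 13 control peaks had a KO partner. HOXB went from 28 H3K27ac peaks to 22 with nearly the same length, 51.9 and 54.2 kb, and HOXC from 15.2 to 17.4 kb. In HOXD, H3K27ac covered 6.08 kb in control and 5.44 kb in KO, and H3K4me3 22.0 and 20.6 kb. The 846-bp H3K27ac peak at chr2:176968786-176969631 was the only one of 7 HOXD peaks without a KO partner. It lay in a 2059-bp control H3K4me3 peak, chr2:176968604-176970662, whose KO partner was 972 bp wide. The control H3K4me3 peaks chr2:177016228-177016852 and chr2:177021741-177022702 had no KO partner either, and the KO peaks chr2:176975910-176976384 and chr2:177038607-177039299 had no control partner, so both genotypes had 15. All H3K27ac peaks of HOXD lay in H3K4me3 peaks in both genotypes.

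CTCF, the factor that anchors chromatin loops, was kept at every control site of the windows. All 21 control CTCF peaks had a KO partner (Wilson 95% interval 84.5 to 100), against 55.8% of control CTCF peaks in the genome. KO cells had 8 further peaks, 3 in HOXA, 2 in HOXB, 3 in HOXC and 0 in HOXD, so 72.4% of the 29 KO peaks (54.3 to 85.3) had a control partner, against 38.6% in the genome. The KO list was longer over the whole genome, with 34419 CTCF peaks against 23875. In control, 18 of the 21 CTCF peaks overlapped an H3K4me3 peak, and in KO 25 of 29.

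**Figure D3:**
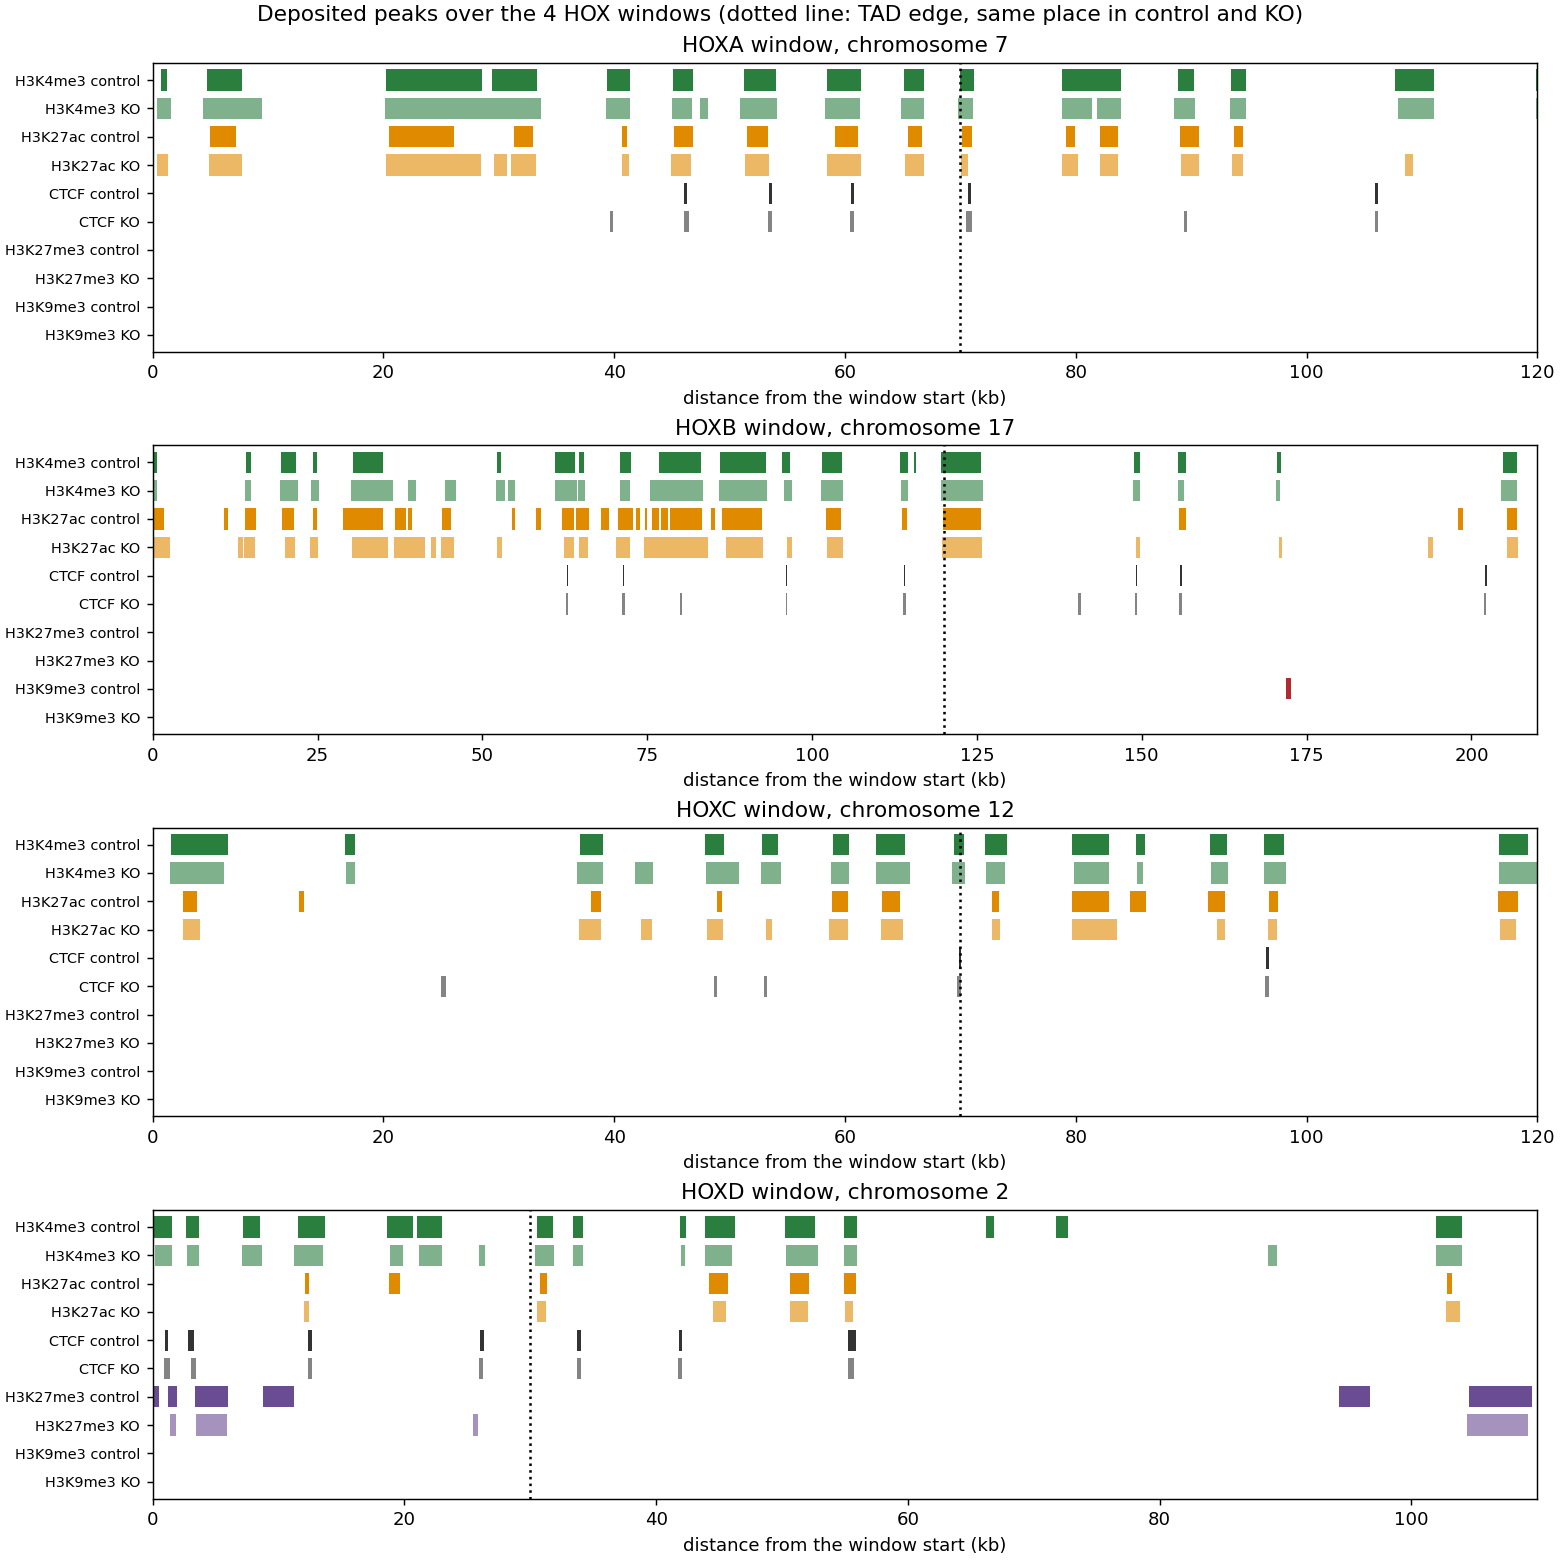
Deposited peaks of H3K4me3, H3K27ac, CTCF, H3K27me3 and H3K9me3 over the 4 windows in control (dark) and KO (light), by distance from the window start in kb, with bars drawn at least 0.25 kb wide and TAD edges dotted. H3K27me3 appears in HOXD only, with 6 peaks in control and 4 in KO, and H3K9me3 as a single control peak in HOXB.

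The repressive marks were nearly absent from 3 of the clusters. H3K27me3 had 0 peaks in HOXA, HOXB and HOXC in either genotype, while it covered 12.2% of the genome in control and 9.37% in KO. In HOXD it lay mainly at both ends of the window, with 13.8 kb in control (6 peaks, 12.5%) and 8.15 kb in KO (4 peaks, 7.41%). The control peaks chr2:176945874-176950528, chr2:176958776-176961265 and chr2:177044249-177046728 had no KO partner, and KO cells had a peak of 383 bp at chr2:176975453-176975835 that control cells lacked. H3K27me3 overlapped H3K4me3 over 1009 bp in control and 313 bp in KO and did not overlap H3K27ac in the window. Inside the windows H3K9me3 had 1 peak in all, an 836-bp control peak in HOXB at chr17:46771826-46772661 with no KO partner.

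Around the windows the H3K9me3 lists differed more than inside them. The 500 kb on each side of a window, a span chosen after the peak lists were seen, are described here. At HOXA, H3K9me3 covered 5.70% of these flanks in control (20 peaks) and 0% in KO (0 peaks), and at HOXB 2.75% (16 peaks) and 0.102% (1 peak). At HOXC it covered 3.47% and 2.42%. At HOXD it covered more in KO, 15.4% against 5.35%, all of it on the low-coordinate side, which is the HOXD13 side. There, H3K9me3 went from 34.5 to 154 kb of the 500 kb, while H3K27me3 went from 206 to 18.4 kb. The mark with the longer coverage on this side was H3K27me3 in control, at 41.1% of bases, and H3K9me3 in KO, at 30.9%. On the high-coordinate side of HOXD, H3K9me3 went from 19.0 to 0 kb and H3K27me3 from 68.5 to 34.1 kb. At HOXB and HOXC H3K27me3 was longer in KO, 22.1 to 80.4 kb and 115 to 189.7 kb over both flanks. Across the genome the KO list held fewer but longer H3K9me3 peaks, 53949 against 102976, covering 20.5% against 11.3%. H3K27me3 covered 12.2% of the genome in control and 9.37% in KO. The mark with the longer coverage was thus H3K27me3 in control and H3K9me3 in KO over the whole genome as well.

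**Figure D4:**
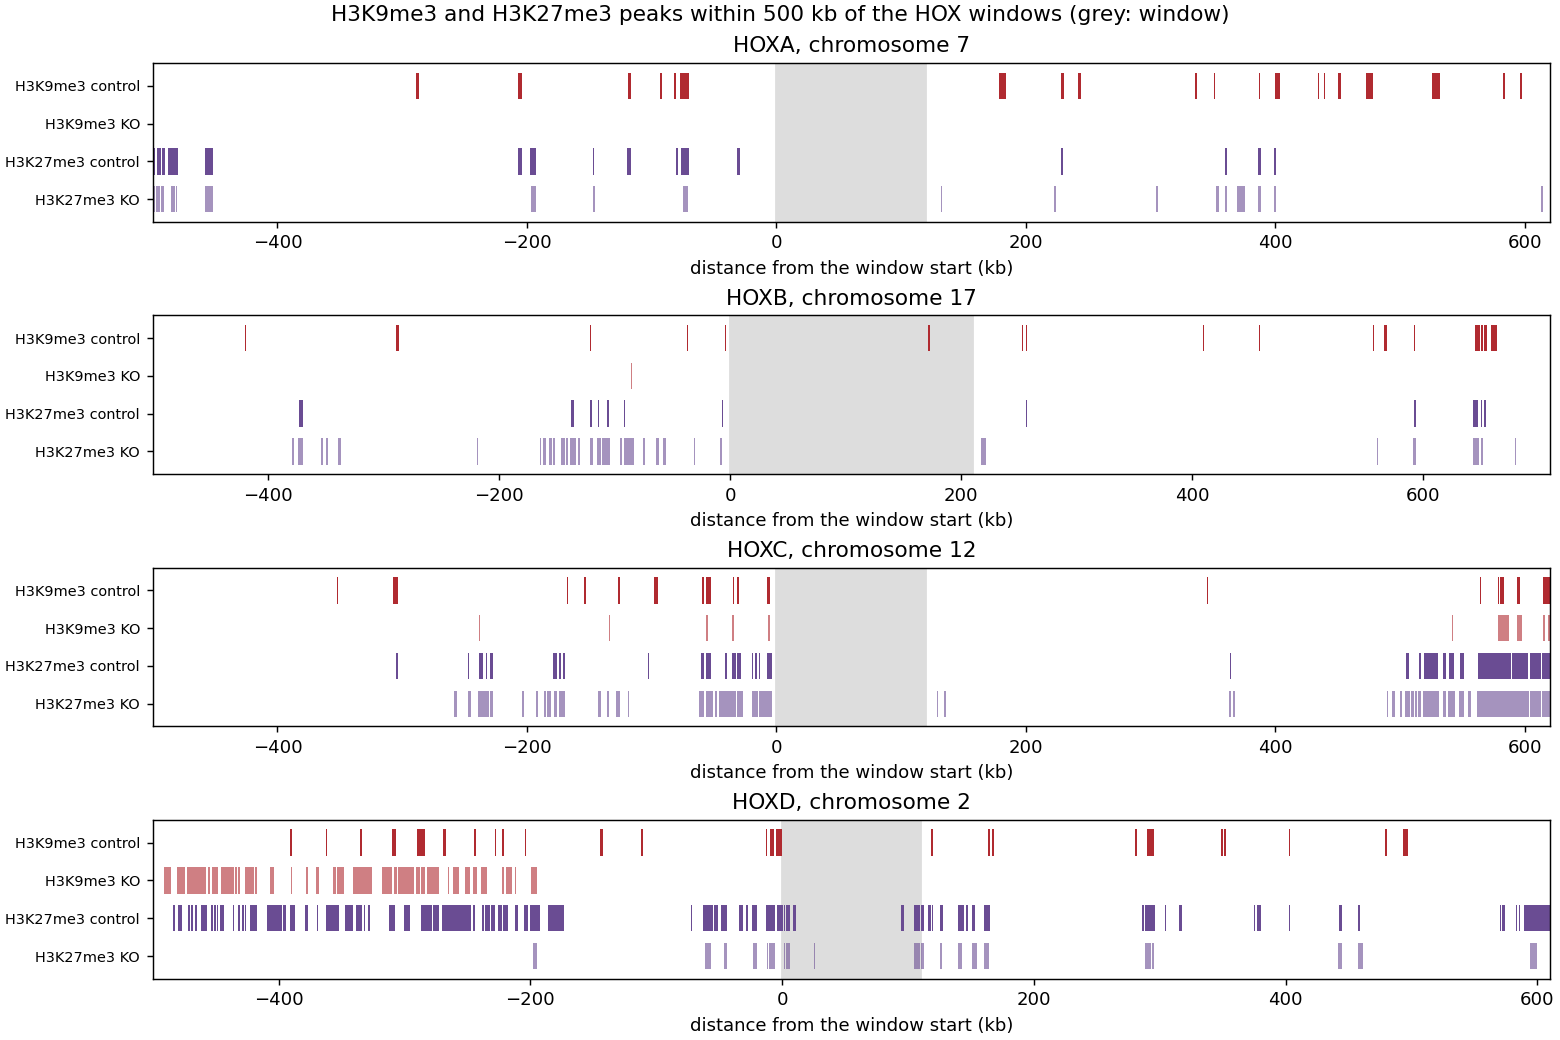
H3K9me3 (red) and H3K27me3 (purple) peaks within 500 kb of each window in control (dark) and KO (light), by distance from the window start in kb, with bars drawn at least 1 kb wide and the window in grey. Left of HOXD, control holds 206 kb of H3K27me3 and 34.5 kb of H3K9me3, and KO holds 18.4 and 154 kb.

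The nearest H3K9me3 peak was farther from HOXA, HOXB and HOXD in KO, on both sides. The KO list held fewer H3K9me3 peaks over the whole genome, 53949 against 102976. Distances at other places of the genome were not taken, so these values are not shown to be particular to the clusters. On the low-coordinate side it was 70.0 kb from HOXA in control and 506 kb in KO, 3.67 and 84.9 kb from HOXB, and 0.031 and 195 kb from HOXD. At HOXC it stayed in place, 5.02 and 5.16 kb away. On the high-coordinate side the distance went from 58.1 to 1026 kb at HOXA, 42.6 to 2090.1 kb at HOXB, 225 to 421 kb at HOXC and 8.69 to 513 kb at HOXD.

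Each window holds 1 edge between topologically associating domains (TADs), the blocks of self-contact read from Hi-C on a 20 kb grid, and all 4 edges were at the same position in both genotypes. The edges are at position 27200000 of chromosome 7, 46720000 of chromosome 17, 54400000 of chromosome 12 and 176980000 of chromosome 2. In control the centre of the nearest CTCF peak lay 0.786 kb from the HOXA edge, 5.97 kb from the HOXB edge, 0.052 kb from the HOXC edge and 3.85 kb from the HOXD edge. The outer edges of these domains were the same at HOXA and HOXB; at HOXC the lower domain was 320 kb in control and 260 kb in KO, and at HOXD the upper domain was 560 and 540 kb.

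The Hi-C compartment signal, a score per 100 kb bin that separates the 2 large chromatin compartments, was lower in KO over 5 of the 9 bins on the windows, higher in 0 and not called in 4. Among 26503 bins, 58.8% were called, 37.3% lower and 21.5% higher. The orientation and scale of the score are not given in the sources used here. The HOXD bin at chr2:177000001-177100000 changed most: its replicates were 0.158 and 0.132 in control and -0.339 and -0.266 in KO (difference -0.45 ± 0.04 SE, limma adjusted p = 1.0e-05). It went from positive to negative, as did 5.95% of all bins. The other HOXD bin, chr2:176900001-177000000, was negative in both, at -0.0677 and -0.188 in control and -0.308 and -0.293 in KO (adjusted p = 0.011). The bins of HOXA (differences -0.11 and -0.11, adjusted p = 0.048 and 0.038) and the first bin of HOXC (-0.12, adjusted p = 0.037) were called lower and stayed positive. No HOXB bin was called, with differences of -0.09, 0.08 and -0.03. Leaving out any 1 Hi-C library left 2 or 3 bins called lower, the second HOXD bin among them each time.

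The lower signal at HOXD extended beyond the window. Within about 1 Mb on either side, all 20 flanking bins had a lower mean in KO, with a median difference of -0.40. Bins with a positive mean went from 7 to 2. At HOXC 19 of 20 flanking bins were lower (median -0.24), at HOXA 16 of 20 (-0.15) and at HOXB 16 of 19 (-0.06). These counts go by the mean and not by a test, and the share of all bins with a lower mean was not taken. By the limma test, 37.3% of all bins were called lower. Whether the flanks differ from the rest of the genome was not tested. Of the 4 flank medians that of HOXD was the lowest, and chromosome 2 also had the lowest of the 4 median expression changes. The other clusters did not follow this order. HOXC had the next lowest flank median, while chromosome 12 had the highest median expression change, at 0.37. A link between the 2 measures was not tested.

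**Figure D5:**
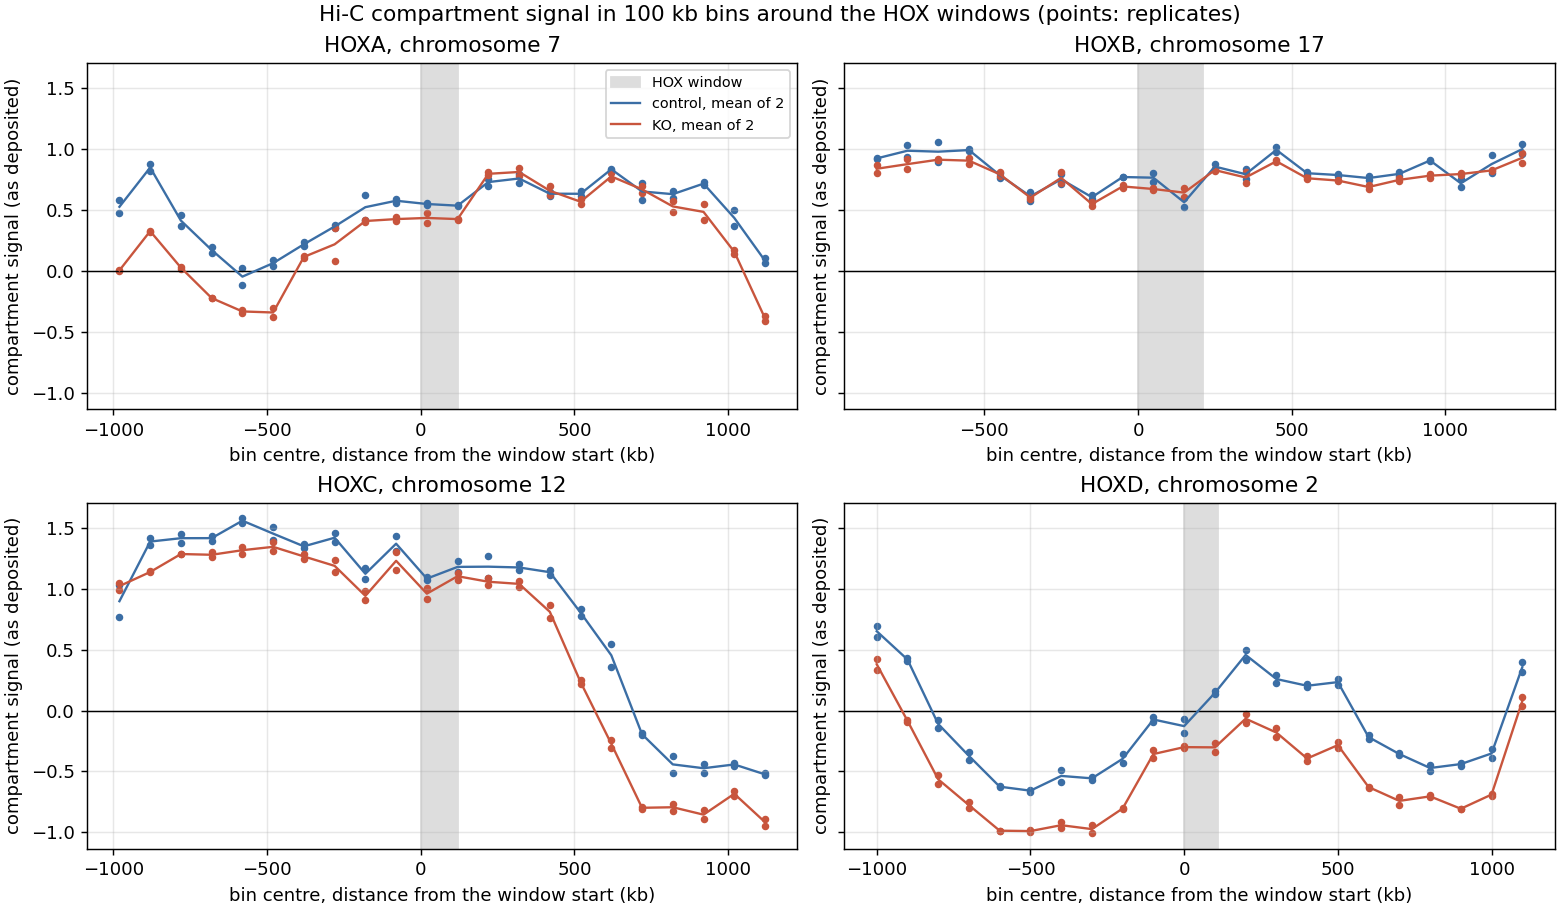
Compartment signal as deposited, in 100 kb bins within about 1 Mb of each window, by distance of the bin centre from the window start in kb. Points are the 2 Hi-C replicates and lines their mean, with control in blue and KO in red. At HOXD every bin is lower in KO and the second window bin goes from 0.145 to -0.302.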

How the data were processed

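Gene counts per library were deposited by the authors as whole numbers; STAR 2.6.1c, Bowtie2 2.2.3, SAMtools 1.5, Picard, MACS2 and edgeR 3.30.0 and build hg19 are listed in the submitters' processing notes, without roles. RNA libraries were stranded total RNA, per the labels' protocols. Peak and TAD lists hold positions only; pooling and thresholds are not given in the sources used here. The compartment table holds a deposited signed score per 100 kb bin and replicate. Rows were named through a gene name table (93.8% matched), and chromosomes of 87.9% of tested genes through RefSeq on GRCh38.p14, which was also the source of promoter sequences, held for 20 of the 38 members. Of the per-sample columns, 0 went unmapped.

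Counts were fitted with edgeR 4.0.16 in R 4.3.3 (TMM, filterByExpr with a minimum count of 10, robust quasi-likelihood test, genotype as the only term, all 6 libraries) with Benjamini-Hochberg adjustment over all tested genes; CPM use TMM-scaled library sizes. Compartment replicates were fitted with limma 3.58.1. Peaks were compared by an overlap of at least 1 bp in Python 3.11.15. On simulated counts for 17767 genes, the RNA-seq fit recovered 90.5% of 95 tested genes changed by a log2 fold of 1 and 100% of 96 changed by 2, with 7.61% of calls false. The simulation changed far fewer genes than were called in the data, by these folds only and with no shift of whole chromosomes. Its rates need not hold for the calls reported here. Libraries of a genotype differed from each other by more than sampling noise. The members, windows and gene lists were chosen with earlier results of these data known. All members are named; of each other list, up to 4 called members with the largest change and called members above 20 CPM against the list's median, with some of the latter given by count only and any others marked; some members of these lists that the rule names are not reported here. Alternatives were 3 scalings, 2 filters, DESeq2 1.42.0, limma voom, a replicate block, a chromosome median offset, leaving out each library, and other window, overlap and merging rules. Input libraries were not used here.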

Additional observations from a re-analysis of the deposited data

How the results depend on the processing

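Of 415 alternative values of single HOX genes, 387 kept their side of the threshold and, where called, their direction. Genes not called could change sign within these 387. The lowest values were -0.21 for HOXA6, -0.02 for HOXB4 and -0.004 for HOXB8. In every alternative run, 11 of 15 genes called higher and 3 of 4 called lower kept their call. The others were HOXA9, HOXA11, HOXC4, HOXC6 and HOXD8. HOXD8 reversed to 0.17 under the chromosome median offset. HOX genes called higher numbered 13 to 16 over the alternatives and called lower 3 to 6. Those changed at least 2-fold numbered 3 as reported, 5 with library size alone, 9 with no expression filter and 4 to 8 when a library was left out. Other cluster transcripts called higher went from 7 to 4 with DESeq2, and those called lower from 1 to 0 with DESeq2, to 0 with the chromosome offset and to 0 to 1 with a library left out. Same-numbered libraries were not paired (correlations of 0.169, 0.103 and 0.062 for replicates 1, 2 and 3, and 2 of 3 control libraries correlated best with their own number, a hint from the data only); with the replicate block 11655 genes were called in place of 11157, and HOXA9 (adjusted p = 0.10) and HOXD8 (adjusted p = 0.057) were no longer called. Compartment bins called lower went from 5 to 7 with columns scaled to unit SD and to 2 to 3 with a library left out. With windows widened by 50 kb on each side, coverage in control and KO was 15.5% and 17.7% for H3K4me3, 11.8% and 13.4% for H3K27ac and 7.82% and 7.70% for H3K27me3, and 2.10% for H3K9me3 in control. In those windows H3K4me3 shared 2174 and 2512 bp with H3K27me3, H3K9me3 shared 15159 and 3625 bp with H3K27me3, and H3K27ac shared 510 bp with H3K27me3 in KO. With a reciprocal overlap of 50%, 65.0% of control H3K27ac peaks had a partner. The causes of these shifts were not tested. Depth limits the HOX genes below the filter, and the peak lists allow no error.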

Other observations

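Promoter windows of RefSeq were at hand for 20 HOX members (27 windows, several of them for HOXA3, and the same window for HOXC4 and HOXC5). CCAAT was found in 18 of these 27 windows, against 34.6% of all 35116 windows, and TATAAA in 5, against 11.5%. The TALE-factor core TGACAG was in 4, against 15.8% of all windows, and the nuclear receptor half-site AGGTCA in 0, against 13.8%, both strands searched. The median number of CpG sites per 300-base window was 22 for HOX and 14 for all windows. Windows of 1 gene or of overlapping transcripts share sequence, so no test was made, and motif matches describe letters only.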
